A study of Mus musculus with 12 samples.

Results

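The genes described are 6 genes whose transcripts mark, or are graded along, the dorsal to ventral axis of the main olfactory epithelium (MOE): *Nqo1*, *Acsm4*, *Ncam2*, *Nfia*, *Nfib* and *Nfix*. They were chosen by name, as 6 of the 19938 genes that had a probe set of their own on the array, and all 6 were measured, by 8 of the 35556 probe sets because *Nfia* and *Nfib* had a pair each. Their RNA levels were read from 12 arrays, 1 per mouse. In 6 ΔJ mice both copies of the J element, an enhancer beside the class I odorant receptor (OR) genes, had been deleted with CRISPR-Cas9. Their 6 wild-type littermates carried the J element. The ΔJ mice were of 1 founder line, made in B6C3F1 zygotes and backcrossed to C57BL/6NCrSlc, and the strain of all 12 mice is labelled C57BL/6. The ΔJ group held 3 males and 3 females, 1 of them at postnatal day 33 (P33), and the wild-type group held 2 males and 4 females, 2 of them at P33. The other 9 mice were taken at P30. The tissue was the whole MOE, so that fewer cells of a type and less RNA per cell cannot be told apart.

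Each olfactory sensory neuron (OSN) of the mouse chooses 1 OR gene, and the set of OR genes it can choose depends on where it lies along the dorsal to ventral axis. Class I OR genes and a group of class II OR genes are chosen by dorsal OSNs, and most class II OR genes by more ventral ones. *Nqo1* encodes an NAD(P)H quinone dehydrogenase and *Acsm4* a medium-chain acyl-CoA synthetase, and both mark the dorsal zone. *Ncam2*, also called OCAM, encodes a cell adhesion molecule that marks the axons of the ventral zones. *Nfia*, *Nfib* and *Nfix* encode nuclear factor I (NFI) transcription factors, which in the mouse MOE are known to rise toward the ventral side. The comparison of ΔJ with wild-type mice asks here whether, beside the receptors, other transcripts of this axis differed.

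In the RefSeq annotation of GRCm38.p6, none of the 6 genes lies in the class I OR cluster. *Acsm4* is on the same chromosome (chr7:119689776-119690025 for the 250 bases before its start, chr7:119690026-119714566 for the gene) and begins 17.15 Mb beyond *Olfr547*, one of the OR genes next to the J element. *Nqo1* lies at chr8:107388225-107403205, *Nfix* at chr8:84704712-84801238, *Ncam2* at chr16:81200697-81624290, *Nfib* at chr4:82290173-82506751 and *Nfia* at chr4:97578066-98118876. The sequences of the 3 zone markers from RefSeq are shown because NFI factors and Ebf factors, which act in OSNs, recognise short motifs that can be looked for in them. Each is the 250 bases upstream of the annotated start, on the strand of the gene, and capitals mark the NFI half-site TTGGC, or GCCAA where it is on the other strand, and the Ebf palindrome, TCCC and GGGA with 2 bases between them.
Nqo1: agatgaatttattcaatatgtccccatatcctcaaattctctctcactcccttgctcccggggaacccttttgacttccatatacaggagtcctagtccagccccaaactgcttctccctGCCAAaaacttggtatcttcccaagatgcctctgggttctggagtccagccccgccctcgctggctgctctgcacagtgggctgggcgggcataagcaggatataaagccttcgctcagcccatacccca
Acsm4: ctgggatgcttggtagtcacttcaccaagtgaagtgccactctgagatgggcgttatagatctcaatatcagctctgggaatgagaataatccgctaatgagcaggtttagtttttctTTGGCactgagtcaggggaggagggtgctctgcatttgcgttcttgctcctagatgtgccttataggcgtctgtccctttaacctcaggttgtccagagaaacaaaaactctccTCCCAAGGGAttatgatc
Ncam2: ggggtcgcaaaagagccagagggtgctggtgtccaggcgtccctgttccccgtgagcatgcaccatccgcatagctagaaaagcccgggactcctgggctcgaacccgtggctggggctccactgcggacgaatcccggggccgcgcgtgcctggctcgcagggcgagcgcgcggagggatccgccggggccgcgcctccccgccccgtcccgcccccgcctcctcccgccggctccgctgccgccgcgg

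The NFI half-site was found once upstream of *Nqo1*, at bases 130 to 126 before the start on the minus strand of the window, and once upstream of *Acsm4*, at bases 132 to 128. It was not found upstream of *Ncam2* or *Nfia*, and 2 of the 4 windows of *Nfix* held it. Of 32851 windows of the same length, 41.5% held the half-site on either strand, so its presence is common. The Ebf palindrome was found upstream of *Acsm4* alone among the genes with a window, as TCCCAAGGGA at bases 18 to 9 before the start, and 0.779% of all windows held it. The full NFI palindrome, TTGGC and GCCAA with 5 bases between them, which contains 2 half-sites and is held by 0.0365% of windows, and the antioxidant response element TGACNNNGC, held by 10.2% of windows, were in none of these windows. These matches are letters in a window and not measured binding. Bases farther upstream were not searched, so a motif absent from a window may still lie near the gene.

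The spread of the deposited values parted the arrays into 2 sets. The SD over all probe sets was 2.07 to 2.13 in replicates 1 to 3 of each genotype (set 1) and 2.21 to 2.23 in replicates 4 to 6 (set 2), and the sources used here do not say what the sets are. Both sets held 3 ΔJ and 3 wild-type mice, and the 3 mice taken at P33 were all in set 2. One array stood apart from the rest, that of ΔJ replicate 5, a P30 female. Its mean correlation with the other arrays of its set was 0.981, against 0.986 to 0.989 for the other arrays of set 2 and 0.990 to 0.993 in set 1. It held the lowest level of all 12 mice in 20.9% of probe sets and the highest in 16.7%. The results that this mouse moves are therefore also given without it, a choice made after its values were seen. The mature OSN marker *Omp* and the other 9 genes of the mature OSN list had a median wild-type level of 2.99, and all 10 were above the female level of Y-linked *Kdm5d* (mean -3.72), which was taken as a gauge of background. All levels are log2 signals relative to the 75th percentile of the array, and levels of different probe sets are not compared.

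No member differed between ΔJ and wild-type mice by the test. Of the 8 probe sets 0 were called (fold change beyond 1.3 and adjusted p under 0.05, limma with Benjamini-Hochberg adjustment over all probe sets), where 0.135% of all 35556 probe sets were called. At an unadjusted p under 0.05 the count was also 0 of 8, against 3.33% of all probe sets. Both counts, without ΔJ replicate 5, were again 0 of 8, against 0.104% and 2.92% of all probe sets. The levels of the genotypes overlapped in all 8, and 0.301% of all probe sets did not overlap. In the same fit 48 probe sets were called, 44 of them with the symbol of an OR gene. The mean level of 117 class I OR probe sets was -2.31 ± 0.16 in ΔJ mice, against -1.72 ± 0.15 in wild-type mice (SD, n = 6 each), with every ΔJ mouse below every wild-type mouse (exact permutation test, two-sided, p = 0.00216, the smallest that 6 against 6 can give).

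**Figure D1:**
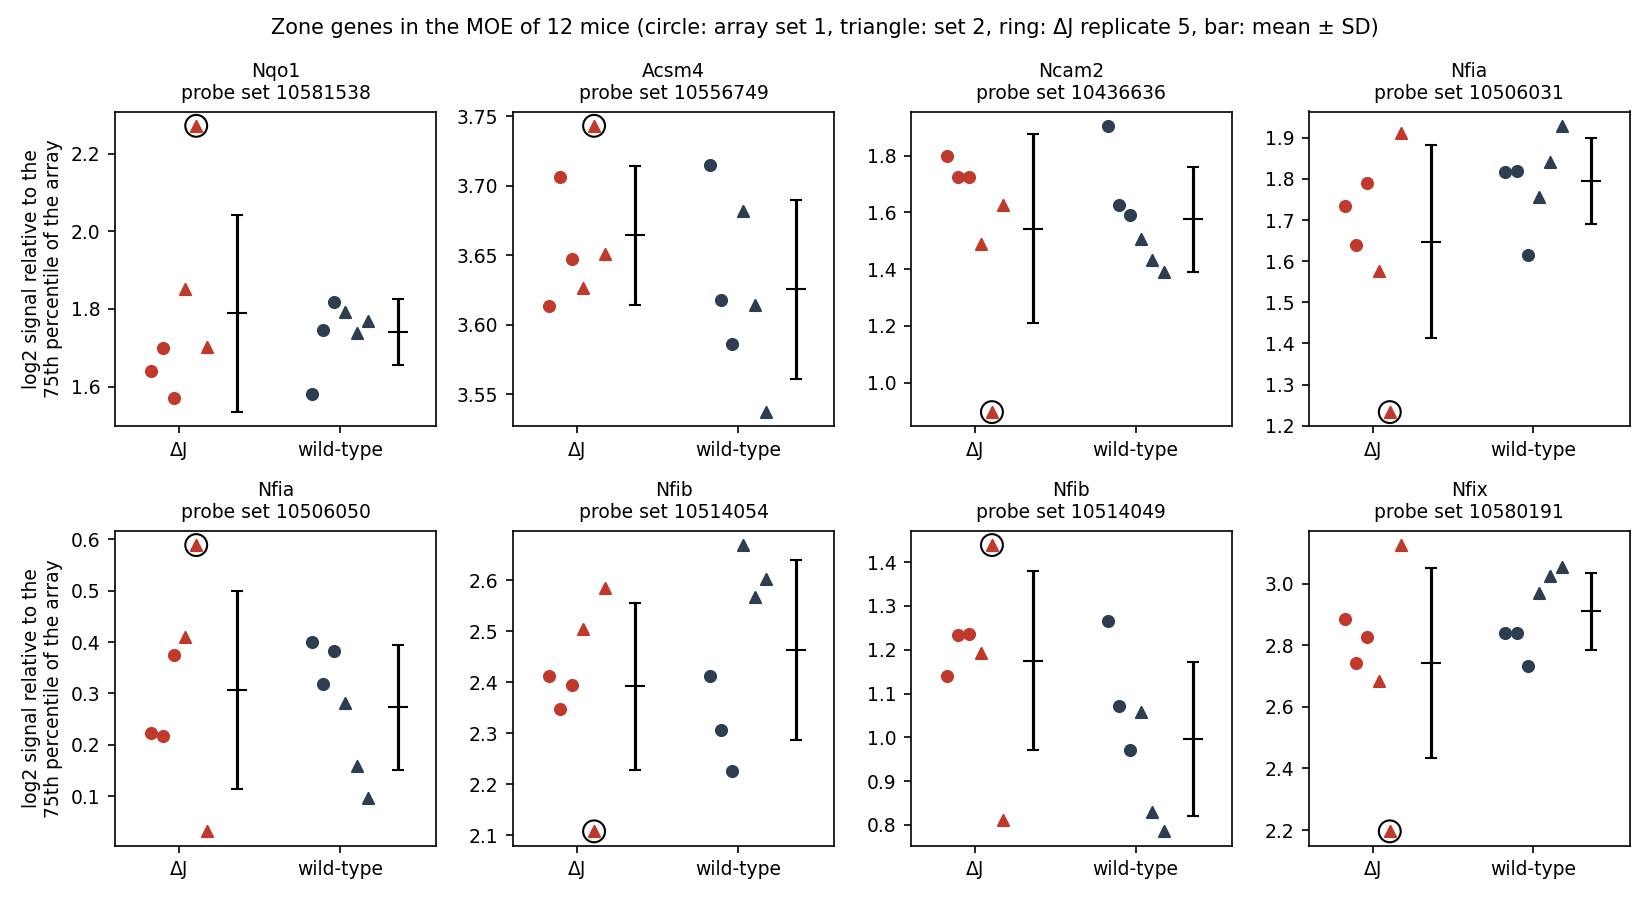
Level of each of the 8 probe sets in 6 ΔJ (left, red) and 6 wild-type mice (right, dark blue), as log2 signal relative to the 75th percentile of the array. Circles are mice of array set 1 and triangles of set 2, the ring marks ΔJ replicate 5, the bars give mean ± SD, and each panel has its own axis. The genotypes overlap in all 8 panels, and the ringed mouse is the highest or the lowest of the 12 in each. Over all probe sets that mouse was lowest in 20.9% and highest in 16.7%.

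Of the dorsal markers, *Nqo1* (probe set 10581538) had levels of 1.64, 1.70, 1.57, 1.85, 2.27 and 1.70 in ΔJ replicates 1 to 6, against 1.58, 1.74, 1.82, 1.79, 1.74 and 1.77 in wild-type replicates 1 to 6. ΔJ replicate 5 was the highest of all mice, and the other 5 ΔJ mice lay between 1.57 and 1.85, around the wild-type range. The difference of ΔJ and wild-type was 0.048 on the log2 scale (SE 0.11, limma adjusted p = 0.993), which is 103.4% of the wild-type level with a 95% confidence interval of 88.1% to 121.4%. Without ΔJ replicate 5 it was -0.049 (SE 0.065), or 96.7% (87.5% to 106.8%).

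*Acsm4* (probe set 10556749) was the steadiest of the members between mice. It had 3.61, 3.71, 3.65, 3.63, 3.74 and 3.65 in ΔJ replicates 1 to 6, against 3.72, 3.62, 3.59, 3.68, 3.61 and 3.54 in wild-type replicates 1 to 6. The SD was 0.050 in ΔJ mice and 0.064 in wild-type mice (n = 6 each), and both genotypes spanned nearly the same range. ΔJ mice had 102.7% of the wild-type level (94.8% to 111.3%, log2 difference 0.039, SE 0.053, limma adjusted p = 0.993), and 101.6% (94.1% to 109.8%) without ΔJ replicate 5.

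*Ncam2* (probe set 10436636), the ventral marker, had 1.80, 1.72, 1.73, 1.49, 0.90 and 1.63 in ΔJ replicates 1 to 6, against 1.91, 1.62, 1.59, 1.51, 1.43 and 1.39 in wild-type replicates 1 to 6. The level of ΔJ replicate 5 was far below that of every other mouse of either genotype. The log2 difference was -0.032 (SE 0.15, limma adjusted p = 0.996), or 97.8% of wild-type (78.6% to 121.7%). It turned to 0.097 (SE 0.095) without ΔJ replicate 5, or 107.0% (92.5% to 123.7%), and to 0.034 without wild-type replicate 1. Its sign thus depended on single mice.

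Among the NFI genes, *Nfia* (probe set 10506031) had 1.73, 1.64, 1.79, 1.58, 1.23 and 1.91 in ΔJ replicates 1 to 6, against 1.82, 1.82, 1.61, 1.76, 1.84 and 1.93 in wild-type replicates 1 to 6. The level was lowest in ΔJ replicate 5, and the other ΔJ mice lay near the wild-type range. ΔJ mice had 90.3% of the wild-type level (77.3% to 105.4%, log2 difference -0.15, SE 0.10, limma adjusted p = 0.993), and 95.6% (85.2% to 107.3%) without ΔJ replicate 5. The other probe set of *Nfia* (10506050) had 0.22, 0.22, 0.37, 0.41, 0.59 and 0.03 in ΔJ replicates 1 to 6, against 0.40, 0.32, 0.38, 0.28, 0.16 and 0.10 in wild-type replicates 1 to 6. Here ΔJ replicate 5 was the highest mouse and ΔJ replicate 6 the lowest. ΔJ mice had 102.4% (88.9% to 117.9%) of the wild-type level by this probe set, and 98.5% (86.7% to 111.9%) without ΔJ replicate 5.

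*Nfib* (probe set 10514054) had 2.41, 2.35, 2.39, 2.51, 2.11 and 2.59 in ΔJ replicates 1 to 6, against 2.41, 2.31, 2.23, 2.67, 2.57 and 2.60 in wild-type replicates 1 to 6. In both genotypes the mice of set 2 were high, with ΔJ replicate 5 as the exception. ΔJ mice had 95.1% of the wild-type level (82.1% to 110.2%, log2 difference -0.072, SE 0.098, limma adjusted p = 0.993), and 99.0% (86.4% to 113.3%) without ΔJ replicate 5. The other probe set of *Nfib* (10514049) had 1.14, 1.23, 1.24, 1.19, 1.44 and 0.81 in ΔJ replicates 1 to 6, against 1.27, 1.07, 0.97, 1.06, 0.83 and 0.79 in wild-type replicates 1 to 6. Its log2 difference of 0.18 (SE 0.11, limma adjusted p = 0.993) was the largest in size among the 8, at 113.2% of wild-type (96.3% to 133.1%), and it was 109.1% (93.1% to 127.9%) without ΔJ replicate 5.

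*Nfix* (probe set 10580191) had 2.88, 2.74, 2.83, 2.68, 2.20 and 3.13 in ΔJ replicates 1 to 6, against 2.84, 2.84, 2.73, 2.97, 3.02 and 3.05 in wild-type replicates 1 to 6. ΔJ replicate 6 was the highest mouse and ΔJ replicate 5 the lowest. ΔJ mice had 89.0% of the wild-type level (73.4% to 108.0%, log2 difference -0.17, SE 0.13, limma adjusted p = 0.993), and 96.1% (83.8% to 110.1%) without ΔJ replicate 5.

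The 95% confidence interval of the difference lay within 1.3-fold in both directions for 6 of the 8 probe sets, with *Nfix* and the second probe set of *Nfib* as the exceptions. Without ΔJ replicate 5 it did so for all 8. The median log2 difference of the members was 0.0012, with 4 higher and 4 lower, beside a median of -0.027 over all probe sets (14158 higher and 21398 lower). Without ΔJ replicate 5 it was -0.018, with 3 higher and 5 lower, beside -0.017 over all probe sets. These medians pool dorsal with ventral genes. With all mice both dorsal markers and the second probe sets of *Nfia* and *Nfib* were higher. *Ncam2*, *Nfix* and the first probe sets of *Nfia* and *Nfib* were lower. Without ΔJ replicate 5, *Nqo1* and the second probe set of *Nfia* were lower and *Ncam2* was higher. Within array set 1, where all mice were taken at P30, *Nfix* averaged 2.82 in ΔJ and 2.80 in wild-type mice. Within array set 2 it averaged 2.67 in ΔJ and 3.02 in wild-type mice, and 2.90 in the ΔJ mice other than replicate 5, so that the difference within this set was -0.35 with that mouse and -0.11 without it. The dependence of the genotype difference on the array set was not past the test for any of the 8 probe sets (limma interaction, adjusted p of 0.909 or more), and the dependence on sex was not either (adjusted p of 0.475 or more).

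**Figure D2:**
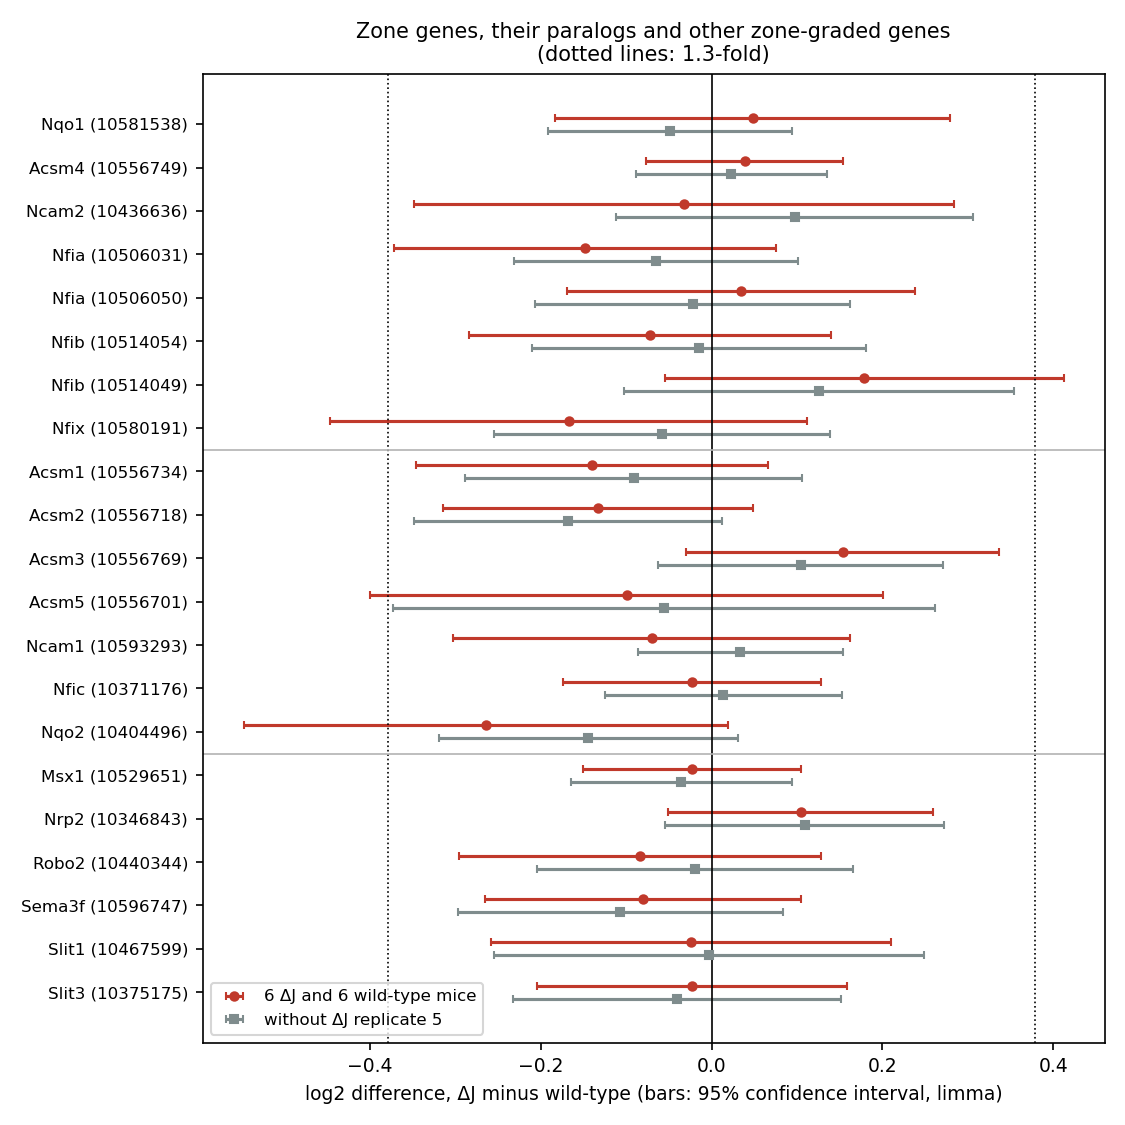
Log2 difference, ΔJ minus wild-type, with its 95% confidence interval from limma, for the 8 member probe sets (top), 7 paralogs (middle) and 6 other zone-graded genes (bottom), with all 12 mice (red circles) and without ΔJ replicate 5 (grey squares). Dotted lines mark 1.3-fold. All 21 intervals with all mice include 0, and without ΔJ replicate 5 the intervals of all 8 member probe sets lie between the dotted lines.

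The paralogs gave no call either. *Nfic*, the NFI gene outside the members, was at 98.4% of the wild-type level in ΔJ mice (88.7% to 109.3%), and *Ncam1*, the broadly expressed relative of *Ncam2*, at 95.3% (81.1% to 111.9%). *Nqo2*, which encodes a related quinone reductase, was at 83.3% (68.4% to 101.4%), and at 90.5% (80.2% to 102.1%) without ΔJ replicate 5. The acyl-CoA synthetase genes *Acsm1*, *Acsm2*, *Acsm3* and *Acsm5* were at 90.8%, 91.2%, 111.2% and 93.4%. In all, 1 of the 7 was higher and 6 were lower, with a median log2 difference of -0.099, and 0 passed the test. With ΔJ replicate 5 left out, 3 were higher and 4 lower, *Ncam1* and *Nfic* among the higher, with a median of -0.056 and levels of 89.0% to 107.5% of wild-type. Of the 6 other zone-graded genes 1 was higher and 5 were lower (median -0.024), and 0 passed. The count was the same without ΔJ replicate 5, with a median of -0.027 and levels of 92.9% to 107.9% of wild-type. With all mice these were the axon guidance receptors *Robo2* (94.4% of wild-type) and *Nrp2* (107.5%), their ligands *Slit1* (98.3%), *Slit3* (98.4%) and *Sema3f* (94.6%), and the homeobox gene *Msx1* (98.4%). *Robo2*, *Sema3f* and *Msx1* were listed as higher on the dorsal side, and *Nrp2*, *Slit1* and *Slit3* as ventral or as paired ligands.

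The members differed more between single mice than between genotypes. ΔJ replicate 5 was the lowest of all 12 mice in *Ncam2*, *Nfix* and the first probe sets of *Nfia* and *Nfib*. It was the highest in *Nqo1*, *Acsm4* and the second probe sets of *Nfia* and *Nfib*, and so held an extreme in 8 of 8. Over all probe sets this mouse was lowest in 20.9% and highest in 16.7%. Among the 7 paralogs it was lowest in 4 and highest in 1, and among the 6 other zone-graded genes lowest in 1 and highest in 0. Set against the other mice of its array set, its level was higher by 0.50 in *Nqo1* and 0.12 in *Acsm4* on the log2 scale, and fell by 0.59 in *Ncam2*, 0.57 and 0.48 in the first probe sets of *Nfia* and *Nfib*, and 0.77 in *Nfix*. In the second probe sets of *Nfia* and *Nfib* it was higher by 0.39 and 0.50. Among all single-gene probe sets these differences stood at the 96.0th percentile for *Nqo1*, the 70.0th for *Acsm4*, the 3.87th for *Ncam2* and the 1.80th for *Nfix*. For *Nfia* they stood at the 4.30th and 92.8th, and for *Nfib* at the 6.31st and 96.1st, first probe set before the second. The class I OR mean of this mouse, -2.52, was the lowest of the ΔJ mice, whose others lay between -2.46 and -2.11. This mean was lower in array set 2 in both genotypes. Wild-type mice had -1.85 to -1.81 in set 2 and -1.71 to -1.45 in set 1. The other ΔJ mice of set 2 had -2.46 and -2.33.

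Some cell type marker sums were also at an extreme in ΔJ replicate 5. Its summed linear level over 10 mature OSN markers was 97.3, against 110.8 to 120.0 among the other ΔJ mice and 108.6 to 117.3 among wild-type mice. Within that list 4 of the 10 markers were lowest in this mouse, with *Stoml3* (4.52, against 5.00 to 5.13 in the other 11 mice) and *Gnal* (3.42, against 3.93 to 4.29) the farthest below. The lower sum lay mostly in these 2 probe sets. Their linear levels were 22.9 and 10.7, against means of 33.6 and 16.8 in the other 11 mice. The sum is therefore no measure of the list as a whole, of which 5 markers lay inside the range of the other mice. *Omp* lay inside the range of the other mice (3.98, against 3.88 to 4.05) and *Gng13* was highest (2.46, against 1.36 to 2.20). Over 6 sustentacular markers the sum was 74.5, against 78.4 to 83.3 among the other ΔJ mice and 77.1 to 84.6 among wild-type mice. Over 10 basal and progenitor probe sets it was 7.62, against 8.49 to 8.87 and 8.23 to 9.06. The immature OSN sum of 22.8 was above the other ΔJ mice (19.9 to 21.7) and the wild-type mice (18.6 to 21.1), and so was the immune sum of 5.82 (2.83 to 5.50 among the other ΔJ mice and 2.50 to 4.64 among wild-type mice). In the immune list *Lyz2* alone was above all other mice, and *Ptprc* and *Cd68* lay inside their range. Of the other lists, 3 of 6 sustentacular markers were lowest and 2 highest in this mouse, 5 of 10 basal and progenitor probe sets lowest and 1 highest, and 3 of 5 immature OSN markers highest. The glia sum of 7.27, over 2 markers, was the lowest of all mice, with *Fabp7* lowest and *S100b* highest. The Bowman gland and respiratory sum (20.4), the fibroblast, bone and vessel sum (56.1) and the blood marker (1.02) lay inside the range of the other ΔJ mice. The part of these differences in the levels of the zone genes in this mouse was not tested. None of these lists held a marker called between the genotypes.

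The deviations of single mice were compared between genes, with the first probe set of *Nfia* and of *Nfib*, and no relation passed after adjustment. As deviations from the mean of each genotype within each array set, *Nqo1* correlated negatively with *Ncam2*, *Nfia*, *Nfib* and *Nfix* in 8 of 8 relations (4 genes in 2 sets of 6 mice), with Pearson's r of -0.93 to -0.61 in set 1 and -0.97 to -0.94 in set 2. For *Nqo1* and *Ncam2*, r was -0.84 in set 1 (Spearman's rho -0.89, exact permutation p = 0.139 and 0.0556) and -0.97 in set 2 (rho -0.83, exact permutation p = 0.139 and 0.222). *Ncam2* and the NFI genes, by the same probe sets, correlated positively with one another in 12 of 12 relations (r of 0.49 to 0.99). The relations in both counts depend on one another, because these genes moved together. How often pairs of other probe sets reach such r was not counted, so the counts are not read as particular to zone genes. For *Ncam2* and *Nfib*, r was 0.92 in set 1 (rho 0.94, exact permutation p = 0.0278 for both) and 0.99 in set 2 (rho 0.94, exact permutation p = 0.0556 and 0.111). For *Nfia* and *Nfix* it was 0.83 in set 1 (rho 0.43, exact permutation p = 0.0833 and 0.472) and 0.99 in set 2 (rho 1.00, exact permutation p = 0.0278 for both).

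A p of 0.0278 is the smallest that the 36 pairings of mice within genotypes allow. Over all 30 relations the smallest Benjamini-Hochberg adjusted p was 0.389 for r and 0.417 for rho. An adjusted p under 0.05 would have needed most of the 30 relations to be at that smallest p. The adjusted test therefore could not decide on single relations. Once the 2 mice farthest from the median of the first gene were left out, r of *Nqo1* with the other 4 genes lay between -0.69 and -0.20, and 6 of the 12 positive relations stayed positive. Several of them therefore rested on those mice, ΔJ replicates 5 and 6 in set 2. Over the 11 mice other than ΔJ replicate 5, as a description, r of *Nqo1* was -0.78 with *Ncam2*, -0.77 with *Nfia*, -0.76 with *Nfib* and -0.65 with *Nfix*. *Acsm4*, the other dorsal marker, did not run with *Nqo1* in both sets, with r of -0.56 in set 1 (rho -0.60, exact permutation p = 0.389 and 0.361) and 0.61 in set 2 (rho 0.54, exact permutation p = 0.194 and 0.250).

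**Figure D3:**
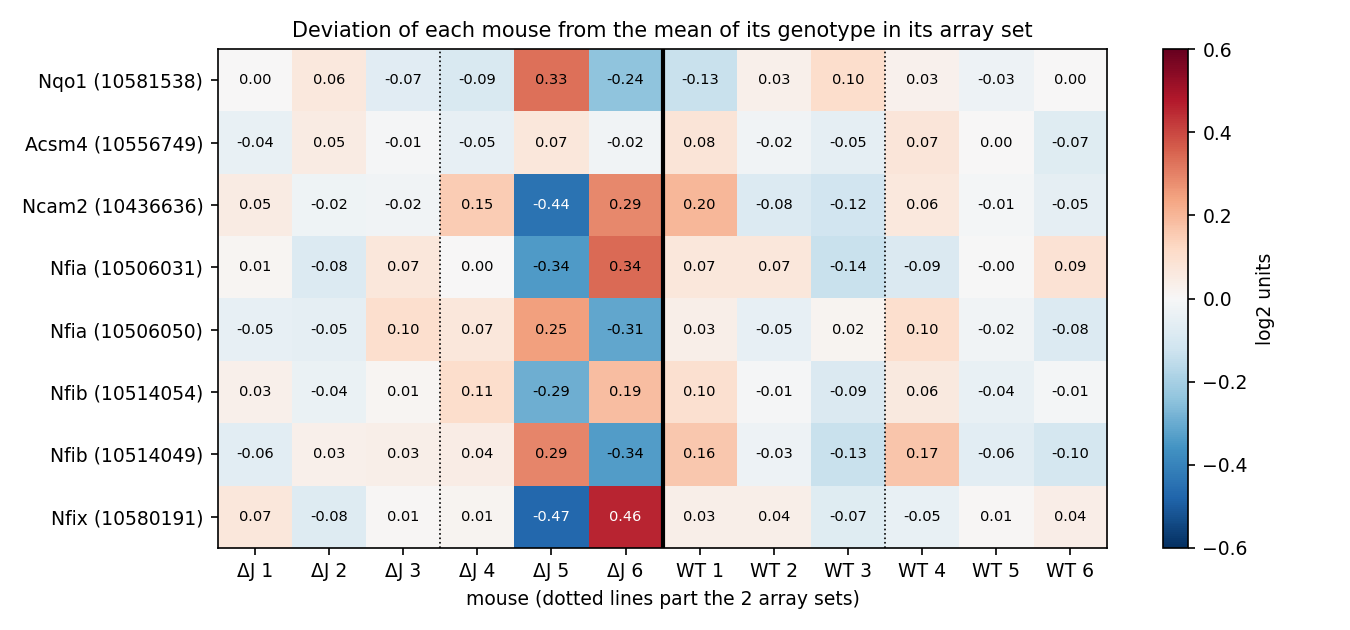
Deviation of each mouse (columns, ΔJ left and wild-type right) from the mean of its genotype in its array set, in log2 units, for the 8 probe sets (rows), with red for higher and blue for lower. ΔJ replicate 5 deviates by 0.33 in *Nqo1* and by -0.44 in *Ncam2*, and ΔJ replicate 6, in the same group of 3 mice, has the opposite sign in each probe set. Deviations cancel within a group, so a large one in ΔJ replicate 5 by itself gives opposite signs among the others.

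The second probe sets gave other signs in set 2. There *Nqo1* correlated positively with the second probe set of *Nfia* (r = 0.86) and of *Nfib* (0.86), and *Ncam2* negatively (-0.75 and -0.74), as did *Nfix* (-0.95 and -0.93). In set 1, r was -0.54 and -0.84 for *Nqo1*, 0.15 and 0.81 for *Ncam2* and -0.0077 and 0.25 for *Nfix*. Over the 11 mice other than ΔJ replicate 5 it was 0.23 and -0.028 for *Nqo1*, -0.10 and 0.31 for *Ncam2*, and -0.81 and -0.63 for *Nfix*. These values, computed after the others were seen and given with no test, so limit the relations of *Nfia* and *Nfib* above to their first probe sets.

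The pairs of probe sets of *Nfia* and *Nfib* did not report the same differences between mice. For *Nfia*, r between its probe sets over the 12 mice was -0.79 for levels and -0.83 for deviations, and -0.66 without ΔJ replicate 5. For *Nfib* it was -0.64 for levels and -0.49 for deviations, and 0.34 without ΔJ replicate 5. In the annotation the first probe set of *Nfia* is tied to 15 transcript accessions and the other to 4, and those of *Nfib* to 14 and 5. Where on the transcripts the probe sets lie was not analysed here.

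**Figure D4:**
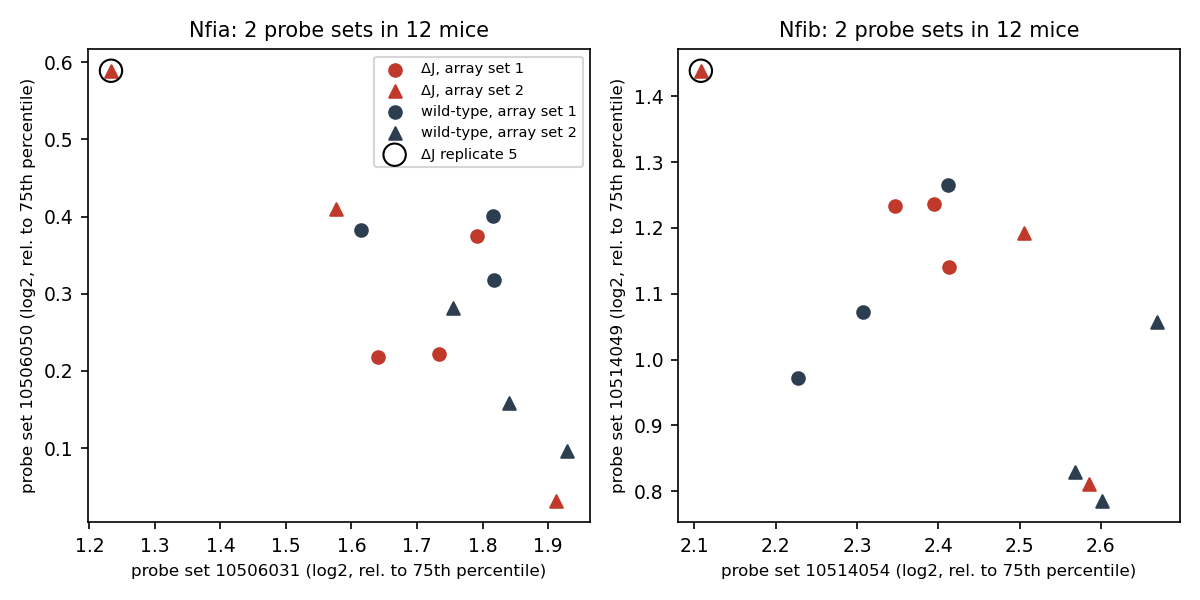
Levels of the 2 probe sets of *Nfia* (left) and of *Nfib* (right) in each of the 12 mice, as log2 signal relative to the 75th percentile of the array, first probe set on the horizontal axis. Red points are ΔJ and dark blue wild-type mice, circles array set 1 and triangles set 2, with a ring around ΔJ replicate 5. The points of *Nfia* run downward (r = -0.79), and so do those of *Nfib* (r = -0.64), where the ringed mouse lies at the upper left.

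The array sets, sex and age were compared as well. *Ncam2* was lower in set 2 (1.39 ± 0.25) than in set 1 (1.73 ± 0.11, SD, n = 6 each), by a log2 difference of -0.34 (SE 0.11, limma adjusted p = 0.0289), and by -0.23 without ΔJ replicate 5 (adjusted p = 0.0123). The first probe set of *Nfib* was 0.16 higher in set 2 (adjusted p = 0.166), and 0.24 higher without ΔJ replicate 5 (adjusted p = 0.00308). Between the sets 42.2% of all probe sets passed an adjusted p of 0.05, and 46.2% without ΔJ replicate 5, so 1 and 2 of the 8 members are not many against this background.

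Between 5 male and 7 female mice no member passed the adjusted test, and 0.0141% of all probe sets did, while 8.13% had an unadjusted p under 0.05. *Nqo1* averaged 1.72 ± 0.066 in males and 1.80 ± 0.23 in females, and *Nfix* 2.90 ± 0.17 in males and 2.77 ± 0.28 in females (SD, n = 5 and 7). With genotype and array set in the model the *Nfix* difference was 0.17, and 0.065 without ΔJ replicate 5. The second probe set of *Nfib* had the smallest unadjusted p of the 8, with 1.00 ± 0.19 in males and 1.15 ± 0.21 in females, a log2 difference of -0.22 with genotype and array set in the model (SE 0.087, limma adjusted p = 0.610).

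The 3 mice at P33 (ΔJ replicate 6 and wild-type replicates 5 and 6) and the 9 at P30 differed in several NFI probe sets before adjustment. *Nfix* averaged 3.07 ± 0.052 at P33 and 2.75 ± 0.22 at P30, and *Nfia* 1.89 ± 0.047 at P33 and 1.66 ± 0.18 at P30 by its first probe set. Its second probe set went the other way, with 0.096 ± 0.063 at P33 and 0.36 ± 0.11 at P30, and so did that of *Nfib*, with 0.81 ± 0.022 at P33 and 1.18 ± 0.14 at P30. With genotype and array set in the model, the log2 differences were 0.42 in *Nfix*, 0.34 and -0.34 in *Nfia* and -0.38 in the second probe set of *Nfib*. They were, without ΔJ replicate 5, 0.24 in *Nfix*, 0.22 and -0.26 in *Nfia* and -0.30 in the second probe set of *Nfib* (limma adjusted p of 0.284 or more). None passed with all mice either (limma adjusted p of 0.201 or more), and 0.00562% of all probe sets did. Of the 8 probe sets 4 had an unadjusted p under 0.05, against 14.6% of all probe sets. The P33 mice were compared with only 3 mice at P30 in their own array set, 1 of which is ΔJ replicate 5.

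The genes whose deviations were most like those of each member were found among all single-gene probe sets, by Pearson's r over the 12 arrays, and are given as a description. For *Nqo1* they were *Atp5mpl*, *Plrg1* and *Gpx4* (r of 0.98 each), and for *Acsm4* *Tmem241*, *Dbnl* and *Rbm42* (r of 0.94, 0.93 and 0.91). For *Ncam2* they were *Ap2b1*, *Fam171b* and *Cep170* (r of 0.98 to 0.99). The first probe set of *Nfib* was most like *Maml2*, *Trim33* and *Ncam2* (r of 0.98 to 0.99), so that a member appeared in the list of another member there. The first probe set of *Nfia* was most like *Irf2bp2*, *Epb41l1* and *Qpctl* (r of 0.97 each), and *Nfix* most like *Ceacam1*, *Mapre2* and *Med14* (r of 0.99 each). For the second probe sets the genes were *Eif4b*, *Hmcn1* and *Msra* with *Nfia* (r of 0.97 to 0.99) and *Rny3*, *Nop53* and *Ctnnb1* with *Nfib* (r of 0.98 to 0.99). Without ΔJ replicate 5 the same r was 0.89 to 0.98 over these 24 relations.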

How the data were processed

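MOE RNA of 6 ΔJ and 6 wild-type mice was hybridised to Affymetrix Mouse Gene 1.0 ST arrays, and genotype, sex, age and replicate number came from the labels. The values, as deposited by the authors, are log2 signals for 35556 probe sets. Affymetrix Expression Console is named in the submitters' processing notes. Its version and settings were not given in the sources used here. Of the probe sets 21789 name a single gene, 1621 several and 12146 none, by the platform annotation provided with the values.

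The 75th percentile of each array was subtracted, a shift named in the study's methods. All probe sets were fitted together with limma 3.58.1 in R 4.3.3 (lmFit, eBayes) on genotype alone, with Benjamini-Hochberg adjustment over all of them. Sex was tested with genotype and array set in the model, array set with genotype, and age with genotype and array set. A probe set was called at an adjusted p under 0.05 and a fold change beyond 1.3. Relations between genes were tested over all 36 within-genotype pairings of an array set, two-sided. The steps were tested on simulated data. The number of arrays limits the precision. Among the arrays 0 were identical.

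The genes and lists were chosen with earlier results of these data known. Named are the 6 genes, their paralogs and 6 other zone-graded genes, and for each probe set the 3 single-gene probe sets with the most similar deviations. *Olfr547*, *Omp* and *Kdm5d* are named as a landmark, a tissue marker and a gauge. Of the listed genes 4 have no probe set of their own here. Upstream sequences are from RefSeq, GRCm38.p6, and 5 of the 6 genes were matched.

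Same-numbered mice deviated together (correlation of deviations from the genotype means 0.365, 0.294, 0.419, 0.441, 0.185 and 0.385 for replicates 1 to 6), which is above 0.1 in every pair. These deviations were not centred within the array sets. The main fit did not pair the mice, and the numbers entered only as a block in an alternative. Differently numbered mice of the same array set correlated about as much (means of 0.224 to 0.420), and number 4 alone was the best match both ways. The numbers follow the array sets, and what else they share is not stated. Alternatives were other scalings, blocks for the replicate number or array set, sex or age as covariates, P30 mice only, a filter on dim probe sets, each array set alone and leaving out each mouse.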

Additional observations from a re-analysis of the deposited data

Results flagged for a closer look

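Of 16 groups of 6 mice (8 probe sets in each genotype), 2 held a mouse at an end whose distance to the nearest other mouse was above the 95% critical value of Dixon's test. Chance gives this in about 1 of 20 groups. In *Ncam2*, ΔJ replicate 5 had a level of 0.90, and the nearest ΔJ mouse had 1.49, a gap of 0.656 of the range of the group. In *Nqo1*, wild-type replicate 1 had a level of 1.58, and the nearest wild-type mouse had 1.74, a gap of 0.665 of the range. The low *Nqo1* of that mouse went with the highest *Ncam2* of the 12 mice, 1.91. Its *Acsm4*, the other dorsal marker, was not low, and at 3.72 was the highest of the wild-type mice.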

How the results depend on the processing

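Under 25 alternatives 0 of the 8 probe sets were called, and no adjusted p of a member was below 0.620. With the replicate number as a block 0 were also called, the pairing changed no call, and 51 of all probe sets were called in place of 48. That count was 28 with P30 mice only, 71 with the array set as a block, and 33 to 44 with any 1 mouse left out. The differences of ΔJ and wild-type were small enough that some changed sign. With the median of each array subtracted *Ncam2* was 0.010, and with age as a covariate the second probe set of *Nfia* was -0.0091. Within array set 1 *Nqo1* was -0.078, *Ncam2* 0.043, *Nfib* 0.070, *Nfix* 0.013 and the second probe set of *Nfia* -0.095. Without ΔJ replicate 5 and with the array set as a block, a setting chosen after seeing the data, *Nqo1* was -0.040, *Ncam2* 0.074, *Nfib* 0.0086 and the second probe set of *Nfia* -0.035. The cause was not tested. With any 1 mouse left out the difference ranged from -0.049 to 0.092 in *Nqo1* (negative without ΔJ replicate 5), 0.021 to 0.057 in *Acsm4*, -0.083 to 0.097 in *Ncam2* (positive without ΔJ replicate 5 and without wild-type replicate 1), -0.20 to -0.065 and -0.022 to 0.090 in *Nfia* (the second negative without ΔJ replicate 5 and without wild-type replicate 6), -0.12 to -0.015 and 0.13 to 0.25 in *Nfib*, and -0.24 to -0.058 in *Nfix*. An unadjusted p was under 0.05 in 1 of the 8 without ΔJ replicate 6 and without wild-type replicate 1, for the second probe set of *Nfib*. The share of all probe sets under it was not counted there, and it was 3.33% in the main fit. The male minus female difference ranged from -0.13 to 0.023 in *Nqo1*, -0.017 to 0.15 in *Ncam2*, -0.012 to 0.15 in *Nfia* and -0.035 to 0.10 in *Nfib*, with the sign turned without ΔJ replicate 5, and in *Nfia* also without ΔJ replicate 6. In *Nfix* it ranged from 0.065 (without ΔJ replicate 5) to 0.26. No member passed the adjusted test between the sexes in these.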

Other observations

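Among single-gene probe sets, ΔJ replicate 5 had lower levels for genes of long span. Here each array was set against its array set, and not against its genotype within the set as for the deviations above. The median difference of ΔJ replicate 5 was 0.044 for genes under 10 kb (6581 probe sets) and -0.095 for genes over 200 kb (1201 probe sets). The other 11 arrays lay between -0.057 and 0.096 and between -0.049 and 0.052 in these classes. Lower levels for long genes were not particular to this array. Of the probe sets over 200 kb, 66.9% were lower in ΔJ replicate 5 and 68.9% in wild-type replicate 2. The rank correlation of span with the difference from the array set, across genes, which are not independent replicates, was -0.18 in ΔJ replicate 5. It was -0.20 to 0.22 in the other arrays. *Ncam2*, *Nfia* and *Nfib* span 423594, 540811 and 216579 bp, *Nfix* 96527 bp, *Acsm4* 24541 bp and *Nqo1* 14981 bp. The members did not follow span throughout. For the long genes *Nfia* and *Nfib* the first probe sets were lower in ΔJ replicate 5 than in the other mice of its array set. Their second probe sets were higher, by 0.39 and 0.50. The part of span in the levels of these genes was not tested.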
